A study of Mus musculus with 42 samples.

Results

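Fibroblast growth factor (FGF) signalling was described through 8 genes, the ligand Fgf4, the receptors Fgfr1 and Fgfr2, the inhibitors Spry2, Spry4 and Dusp6, and the target transcription factors Etv4 and Etv5. They were chosen by name, as the probe sets that the platform annotation assigns to these symbols, out of 18193 genes on the array. The rule itself uses no measured value, but earlier results of these data were known when the genes were chosen. All 8 were represented, by 22 probe sets in all, and all 8 passed the filter on dim genes. Transcripts were measured on 42 Affymetrix arrays of B6D2F1 mouse preimplantation embryos, either uninjected or microinjected at the stage of 1 cell with a morpholino. Morpholinos are synthetic antisense molecules that pair with an mRNA and hinder its translation or splicing. The morpholinos were directed at Oct4 (gene symbol Pou5f1), Sall4 or Nanog, factors of the pluripotency network, and a control morpholino had a sequence with no match in the mouse.

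Each of the 14 groups had 3 arrays, numbered as biological replicates, and embryos were collected 20 h or 44 h after injection. At 20 h the Oct4 experiment held uninjected and Oct4 morpholino embryos, the Sall4 experiment held uninjected and Sall4 morpholino embryos, and the Nanog experiment held uninjected, control morpholino and Nanog morpholino embryos. At the later time the Oct4 and Sall4 experiment held uninjected, control morpholino, Oct4 morpholino and Sall4 morpholino embryos, and the Nanog experiment again held uninjected, control morpholino and Nanog morpholino embryos. All groups share the strain and the culture medium, and no age or embryo number is used here. Whole embryos were measured, so fewer cells of a type and less RNA per cell cannot be told apart in any value below.

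FGF ligands bind receptor tyrosine kinases on the cell surface, and the receptors signal through Ras and the MAP kinases to the nucleus. In the preimplantation embryo, Fgf4 is a product of the cells that will form the epiblast, and the FGF signal directs cells of the inner cell mass towards primitive endoderm. Fgfr1 is known as the receptor of inner cell mass cells, and Fgfr2 as a receptor of trophectoderm and primitive endoderm. Spry2 and Spry4 encode Sprouty proteins, which restrain receptor tyrosine kinase signalling, and Dusp6 encodes a phosphatase that removes the activating phosphates of ERK. Etv4 and Etv5 encode ETS family factors whose transcription commonly follows FGF signalling.

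Values are deposited array intensities on a linear scale, and differences are given on the scale of log2(intensity + 16), which understates the change of dim genes. Medians of the 18 arrays of the Nanog experiment were 193 to 227, and those of the other 24 arrays were 26.1 to 33.3, so levels were compared only within these sets of arrays. The filter on dim genes needed 1 group mean above 71.15, which is below the medians of the Nanog experiment. Passing it therefore says little about a gene's level. The arrays held transcripts of pluripotency genes at both times: 7 to 9 of 9 lay above the arrays' median in every group, whereas 0 or 1 of 8 granulosa cell markers did. These counts are no check of the embryos' stage. The transcript levels of the targeted genes are no check of knockdown, since a morpholino need not lower its mRNA. Mean Pou5f1 was 3293 with the Oct4 morpholino against 2803 uninjected at 20 h and 2218 against 3925 with the control at 44 h. Mean Sall4 was 2160 with its morpholino against 2153 at 20 h and 3662 against 3169 at 44 h, and mean Nanog was 83.2 against 111 and 2687 against 3828.

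Promoter sequences of 5 of the 8 genes were at hand, from RefSeq on GRCm38.p6, and the windows below are the 250 bases before the annotated start. Windows of Fgf4, Fgfr2 and Dusp6 are shown because these genes stood apart between groups below and cover the ligand, a receptor and an inhibitor. Each runs 5′ to 3′ on the gene's strand, and capitals mark matches to the motifs that were searched on both strands. The Fgf4 window is chr7:144861136-144861385 on the plus strand, the Fgfr2 window chr7:130266809-130267058 on the minus strand and the Dusp6 window chr10:99262981-99263230 on the plus strand.
Fgf4: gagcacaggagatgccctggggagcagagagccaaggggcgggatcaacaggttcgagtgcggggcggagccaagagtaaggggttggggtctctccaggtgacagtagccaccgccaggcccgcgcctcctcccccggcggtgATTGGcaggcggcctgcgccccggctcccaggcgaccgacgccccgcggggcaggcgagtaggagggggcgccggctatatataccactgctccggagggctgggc
Fgfr2: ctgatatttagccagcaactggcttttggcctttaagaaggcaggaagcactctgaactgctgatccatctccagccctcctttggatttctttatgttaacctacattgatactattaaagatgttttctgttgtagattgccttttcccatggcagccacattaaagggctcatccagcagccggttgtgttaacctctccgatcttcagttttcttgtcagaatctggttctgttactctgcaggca
Dusp6: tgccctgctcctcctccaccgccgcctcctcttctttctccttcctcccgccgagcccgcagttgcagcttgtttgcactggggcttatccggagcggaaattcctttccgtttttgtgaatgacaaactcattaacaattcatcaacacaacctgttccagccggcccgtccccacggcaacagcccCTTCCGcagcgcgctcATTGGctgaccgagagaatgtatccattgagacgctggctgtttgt
The motifs were the octamer ATGCAAAT, the Sox motif CATTGT, the ETS motif CGGAAG, the TATA motif TATAAA and CCAAT, and none of their letters overlap in these windows. In Fgf4 the capitals are a CCAAT on the opposite strand 106 bases before the start, and the octamer, which POU factors such as Oct4 can bind, was not in this window. In Dusp6 the capitals are an ETS motif 62 bases and a CCAAT 46 bases before the start, both on the opposite strand, and the Fgfr2 window held none of the letters searched. Among 32851 promoter windows of the same length, 1.6% held the octamer, 10.7% the Sox motif, 13.6% the ETS motif, 12.4% the TATA motif and 33.8% CCAAT. The Fgf4 window was 71.2% G and C, the Dusp6 window 56.4% and the Fgfr2 window 44.0%, against a median of 52.4%. Of the other members, the window of Spry2 held no match and the windows of Etv5 held CCAAT alone. A match or its absence in these letters describes the window and not a site in use.

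**Figure D1:**
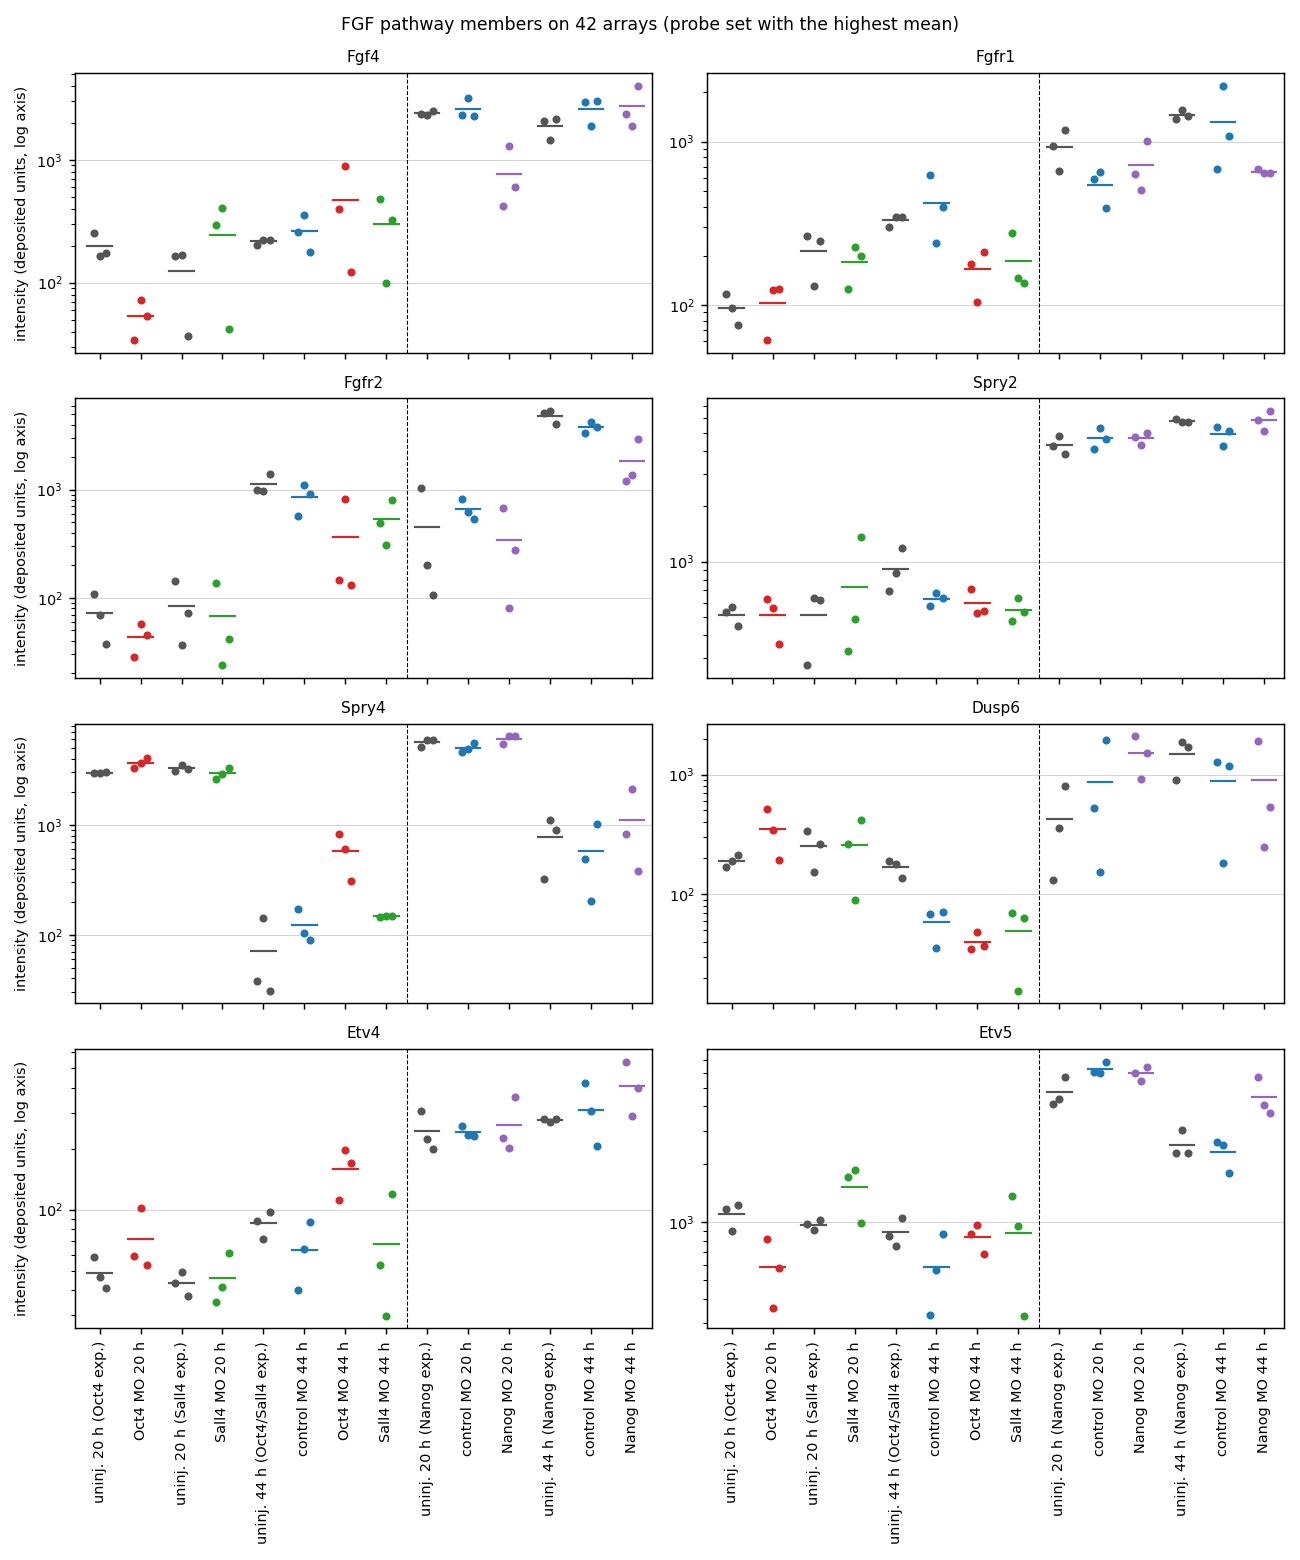
Deposited intensity of each member on all 42 arrays, on a log axis, for the probe set with the highest mean. Points are arrays, bars are means of 3 arrays, MO is morpholino, uninj. is uninjected, exp. is experiment, and the dashed line separates the Nanog experiment (right), which has its own intensity scale. Spry4 is high in every group at 20 h and low at 44 h, and Fgfr2 runs the other way.

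The largest differences of the members lay between 20 h and 44 h, where Fgfr2 rose and Spry4 fell in each of 3 comparisons. In uninjected embryos of the Nanog experiment, 3 of 8 members differed between the times at an adjusted p under 0.05 (limma, Benjamini-Hochberg over all 15478 genes tested), where 25.6% of all genes did. In control morpholino embryos of the same experiment 4 of 8 differed, against 23.3% of all genes. In uninjected embryos of the other experiments 5 of 8 differed, against 45.5% of all genes, but there the times come from separately labelled experiments, so time and experiment cannot be told apart. These shares are not far from the background of each comparison, so the results lie in which members moved and how far.

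After a knockdown, members passed the test in 1 of 6 comparisons. Against the control morpholino at 44 h, 3 of 8 members differed with the Oct4 morpholino (11.6% of all genes), 0 with the Sall4 morpholino (3.97%) and 0 with the Nanog morpholino (5.01%). At 20 h, 0 members differed with the Oct4 (2.02%) or the Sall4 morpholino (0.233%) against uninjected embryos, and 0 with the Nanog morpholino against the control morpholino (0.62%). In these 5 comparisons without a call, members with an unadjusted limma p under 0.05 were counted beside all genes. They numbered 1 with the Sall4 and 2 with the Nanog morpholino at 44 h (2547 and 2635 of all 15478 genes). At 20 h they numbered 2, 0 and 1 with the Oct4, Sall4 and Nanog morpholinos (1651, 1382 and 1221 of all genes). Control morpholino embryos differed from uninjected embryos in 0 members in the Nanog experiment at 20 h (0.0905% of all genes), at 44 h outside it (0.0969%) and in the Nanog experiment at 44 h (0.349%). Of these 24 values, 0 had an unadjusted p under 0.05, where 901, 855 and 1608 of all genes did in the same order. The Oct4 and Sall4 comparisons at 44 h share their control arrays. For 1 gene in groups of 3, the smallest p of an exact permutation test is 0.1, so these calls rest on the spread that limma shares across groups and genes.

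**Figure D2:**
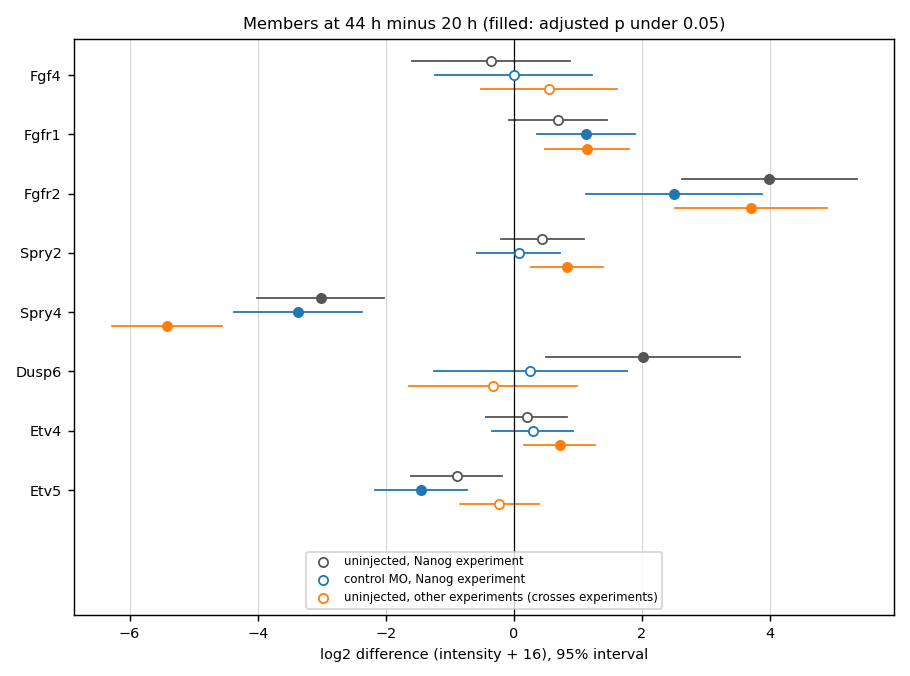
Difference between 44 h and 20 h of each member on the log2 scale, with its 95% interval, in uninjected and control morpholino (MO) embryos of the Nanog experiment and in uninjected embryos of the other experiments. Filled points passed an adjusted p of 0.05; Spry4 lies far below 0 and Fgfr2 far above it in all 3.

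Fgf4, the ligand, passed no test, and its clearest separations were lower values with the Oct4 and the Nanog morpholino at 20 h. In the Oct4 experiment at 20 h, Fgf4 read 254, 163 and 174 in the uninjected arrays and 34.1, 71.8 and 53.7 with the Oct4 morpholino. Every morpholino array lay below every uninjected array, at a log2 difference of -1.64 (SE 0.60, adjusted p = 0.210). In the Nanog experiment at 20 h it read 2317, 3164 and 2287 with the control and 419.8, 1288 and 603 with the Nanog morpholino. The groups again did not overlap, and the difference was -1.87 (SE 0.60, adjusted p = 0.230). Both values missed the threshold over all genes although they were 3.11 and 3.65 times lower.

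All 4 Fgf4 probe sets, of which 3 are annotated to the same cDNA, had every morpholino array below every comparison array in both cases. Tested on their own, they differed by -2.01 to -1.64 with the Oct4 morpholino and by -2.24 to -1.74 with the Nanog morpholino, with adjusted p from 0.202 to 0.298. With weights for array quality, the Oct4 value passed, at -1.57 and an adjusted p of 0.0372. With the Sall4 morpholino at 20 h, Fgf4 read 292, 403 and 42.2 against 166, 167 and 37.0 in uninjected embryos, and the arrays overlapped. Array 3 of both groups was the low one there, and the difference was 0.70 (SE 0.60, adjusted p = 0.885).

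At 44 h the Fgf4 arrays overlapped in every knockdown. They read 261, 354 and 176 with the control, 399, 882 and 123 with the Oct4 morpholino and 475, 100.1 and 325 with the Sall4 morpholino. The spread within both morpholino groups was wider than their distance from the control, at 0.47 (SE 0.60, adjusted p = 0.733) and -0.01 (SE 0.60, adjusted p = 0.998). In the Nanog experiment Fgf4 read 2965, 1879.9 and 2989.7 with the control and 2377, 1883 and 3992 with the Nanog morpholino, a difference of 0.03 (SE 0.60, adjusted p = 0.992). The effect of the Nanog morpholino on Fgf4 differed between the times by 1.90 (unadjusted p = 0.0332, adjusted p = 0.395), which did not pass. In uninjected embryos Fgf4 read 204, 224 and 223 at 44 h outside the Nanog experiment, and 2371, 2303 and 2492 at 20 h and 2064, 1448 and 2137 at 44 h within it. The time differences were 0.55 and -0.36, with adjusted p of 0.426 and 0.728.

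Fgfr2, a receptor of trophectoderm and primitive endoderm, rose between the times in each of the 3 comparisons. In uninjected embryos of the Nanog experiment it read 1042, 201 and 105 at 20 h and 5092, 5322 and 4078 at 44 h. All 44 h arrays were above all 20 h arrays, of which array 1 was far above the others, and the difference was 3.99 (SE 0.67, adjusted p = 3.31e-05), or 15.9-fold. In control morpholino embryos it read 814, 628 and 539 and 3318, 4211 and 3814, a rise of 2.50 (SE 0.67, adjusted p = 0.00586). In the other experiments the uninjected arrays read 109, 69.2 and 37.0 and 144, 36.5 and 72.8 at 20 h and 995, 971 and 1396 at 44 h, a difference of 3.70 (SE 0.58, adjusted p = 3.64e-06). The second probe set, 1420847_a_at, rose in each of these comparisons too, by 2.42, 2.52 and 2.18. The third, 1443211_at, was dim, reading 3.00 to 12.7 in uninjected embryos outside the Nanog experiment, and passed in control morpholino embryos alone, at 1.00.

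At 44 h the Fgfr2 differences were below 0 after each knockdown and did not pass the test. It read 575, 1103 and 905 with the control, 146, 819 and 130.3 with the Oct4 morpholino and 492, 307 and 802 with the Sall4 morpholino. Arrays 1 and 3 of the Oct4 morpholino were far below the control and array 2 was within its range, which gave -1.65 (SE 0.67, adjusted p = 0.116). Of the 6 fits without 1 array, only that without array 2 passed, at -2.46 and an adjusted p of 0.0190. Against uninjected embryos, which read 995, 971 and 1396, the difference was -2.05 at 0.0361. No other setting passed apart from the mean of all probe sets, and no probe set passed on its own. The probe set 1420847_a_at had all Oct4 morpholino arrays, 186, 153 and 54.0, below the control arrays, 477, 468 and 329.6, and the mean of all Fgfr2 probe sets fell by 1.25 (adjusted p = 0.00802). The Sall4 difference was -0.73 (SE 0.67, adjusted p = 0.701).

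With the Nanog morpholino at 44 h Fgfr2 read 1203, 1374 and 2965, all below the control arrays at 3318, 4211 and 3814. The difference was -1.14 (SE 0.67, adjusted p = 0.420). The probe set 1420847_a_at separated the groups further, at 599.9, 618 and 627 against 3227, 2960.1 and 2504, and passed on its own at -2.20 (SE 0.67, adjusted p = 0.0471). The mean of all probe sets fell by 1.41 (adjusted p = 0.00516). At 20 h Fgfr2 arrays overlapped after each knockdown, with -0.50, -0.36 and -1.31 for the Oct4, Sall4 and Nanog morpholinos and adjusted p of 0.988, 0.996 and 0.685.

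Markers of trophectoderm and primitive endoderm were read beside Fgfr2. The summed level of 8 trophectoderm markers at 44 h was 18623 to 19831 with the control and 14458 to 15676 with the Nanog morpholino, and 6252 to 7281 with the control against 4889 to 7140 with the Oct4 and 3910 to 6380 with the Sall4 morpholino. Of these 8, Gata3 was called lower with the Nanog (-3.92) and Cdx2 with the Sall4 morpholino (-2.75), and 0 were called with the Oct4 morpholino. With the Nanog morpholino the brightest were Tfap2c, at a mean of 8194 against 9004, and Tead4, at 5098 against 7447. Cdx2, Eomes and Elf5 alone had higher means there, at 300.5 against 236.6, 197.4 against 52.1 and 57.1 against 41.2. The summed level of 6 primitive endoderm markers was 6550.1 to 7567 with the control and 3813 to 7562 with the Nanog morpholino, and 1592 to 2388 with the control against 1152 to 1410.2 with the Oct4 and 718 to 2242 with the Sall4 morpholino. In control morpholino embryos of the Nanog experiment this sum was already 6581 to 7880 at 20 h. Mean Dab2 and Gata4 were higher there at 20 h than at 44 h, at 3787 against 2360 and 2874 against 1100. Mean Gata6 and Pdgfra were lower at 20 h, at 303 against 3327 and 84.7 against 341. Of the 4 primitive endoderm markers tested, 1 was called in each knockdown at 44 h: Dab2, an adaptor protein, fell, at -2.21 with the Oct4, -2.83 with the Sall4 and -1.35 with the Nanog morpholino. The transcription factor genes Gata6 and Gata4 did not pass, Gata6 at -0.88, -0.87 and -0.89 and Gata4 above 0 at 0.12, 0.40 and 0.77, and the receptor gene Pdgfra differed by 0.34, 0.09 and -0.26. None of these markers was listed at 1 or less, and their part in the Fgfr2 values was not tested.

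Fgfr1, the receptor of the inner cell mass, was called lower with the Oct4 morpholino at 44 h by a single probe set. It read 624, 239.6 and 399.8 with the control and 179, 105 and 211 with the Oct4 morpholino. All 3 morpholino arrays lay below all controls, and Fgfr1 fell by 2.34-fold, at -1.22 (SE 0.37, adjusted p = 0.0280). The other probe sets did not follow it. Probe set 1424050_s_at differed by 0.36, in the opposite direction, and 1436551_at by -0.09, and the mean of all 3 differed by -0.32 at an adjusted p of 0.538. The call was also lost without control array 1 (-0.90, adjusted p = 0.181), without control array 3 (-1.21, 0.0748) or without Oct4 morpholino array 2 (-0.96, 0.150), with uninjected embryos as the comparison (-0.98, 0.0748) and with the compared groups fitted alone (adjusted p = 0.152).

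With the Sall4 morpholino Fgfr1 read 277, 147 and 137 at 44 h against the same control arrays, and the groups overlapped at -1.07 (SE 0.37, adjusted p = 0.104). Here too 1424050_s_at went the other way, with all Sall4 morpholino arrays above all controls at 0.49 (SE 0.33, adjusted p = 0.572), while 1436551_at had them all below, at -1.07 (SE 0.63, adjusted p = 0.471). With the Nanog morpholino it read 679, 644 and 639.6 against 674, 2190.2 and 1082. The lowest control array lay within the morpholino range, and the difference was -0.82 (SE 0.37, adjusted p = 0.241). Here the dimmest probe set, 1436551_at, separated the groups at 134, 11.0 and 39.9 against 235, 322 and 226 and passed at -2.17 (SE 0.63, adjusted p = 0.0360). The mean of all 3 probe sets also fell, by 1.21 (adjusted p = 0.00374). At 20 h the Fgfr1 differences were 0.05, -0.18 and 0.37, with overlapping arrays.

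Over time Fgfr1 rose from 586, 647 and 389.6 to 674, 2190.2 and 1082 in control morpholino embryos. The groups did not overlap, and the difference was 1.12 (SE 0.37, adjusted p = 0.0261), a call that was lost without control array 2 at 44 h (0.68, adjusted p = 0.248) or control array 3 at 20 h (0.91, 0.137), and with the compared groups fitted alone (adjusted p = 0.154). In uninjected embryos of the Nanog experiment it read 936, 659.9 and 1176 and 1383, 1549 and 1443, a difference of 0.69 (SE 0.37, adjusted p = 0.191). Its probe set 1436551_at rose in both, by 1.67 in uninjected and 1.84 in control morpholino embryos. In the other experiments it read 117, 95.3 and 74.9 and 265, 130.3 and 246 at 20 h and 299, 344 and 346 at 44 h and rose at 1.14 (SE 0.32, adjusted p = 0.00403). The other 2 probe sets differed by -0.16 and -0.03 there and did not pass, and neither did the mean of all 3 (0.32, adjusted p = 0.279).

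**Figure D3:**
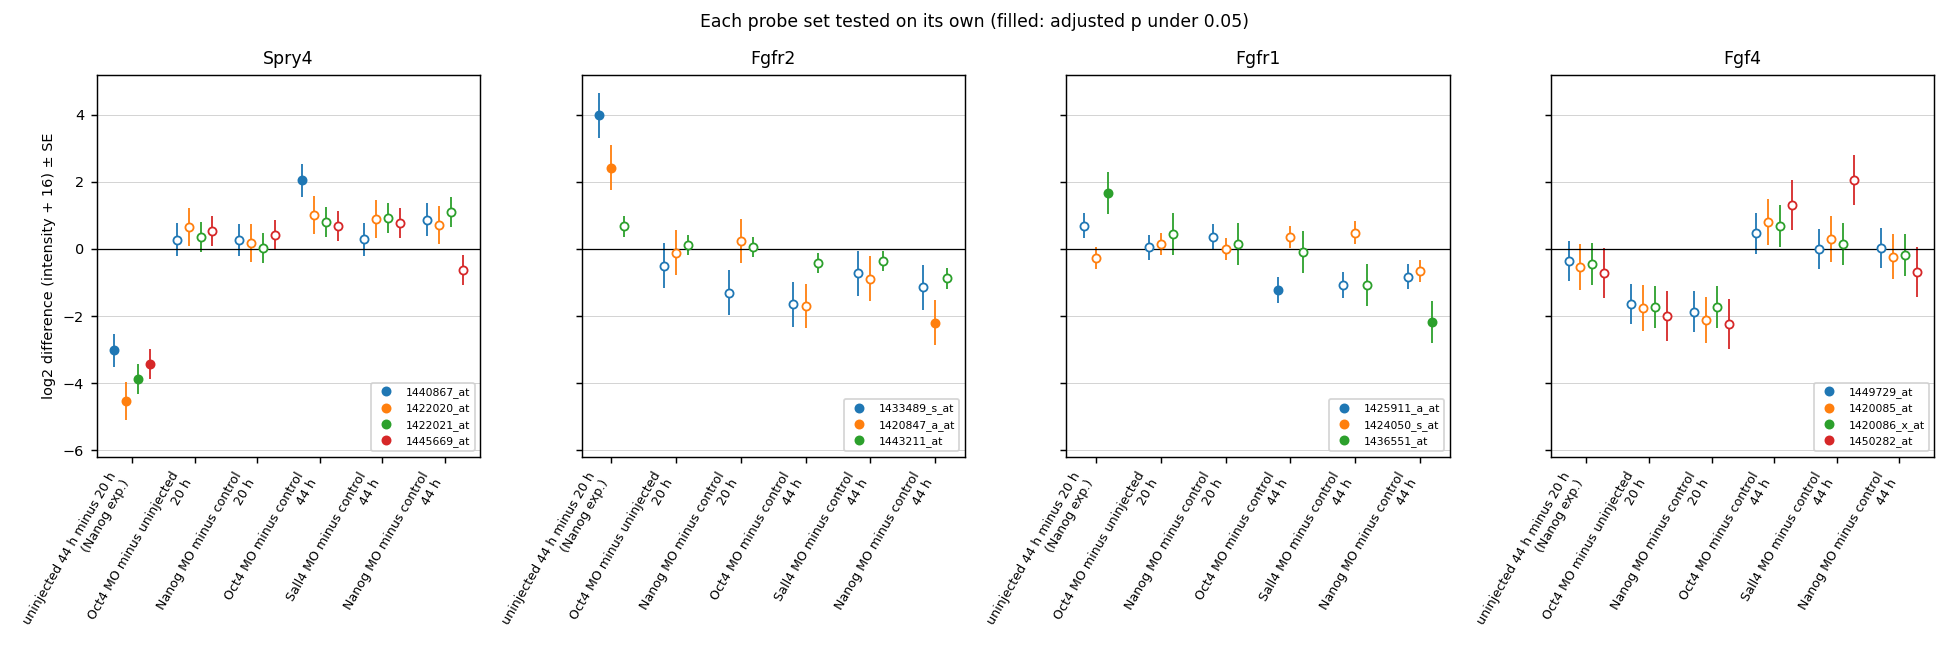
Difference on the log2 scale of every probe set of Spry4, Fgfr2, Fgfr1 and Fgf4, each tested on its own, with SE as bars; filled points passed an adjusted p of 0.05, exp. is experiment and MO is morpholino. The 4 Spry4 probe sets fall together over time, whereas the Fgfr1 probe sets point in different directions. The 4 Fgf4 probe sets lie together below 0 with the Oct4 and Nanog morpholinos at 20 h, without passing. The Sall4 morpholino at 20 h is not shown.

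Spry4, a Sprouty inhibitor, had the largest change of any member between the times in control morpholino embryos and in uninjected embryos outside the Nanog experiment, while Fgfr2 changed more in uninjected embryos of that experiment. Outside the Nanog experiment the uninjected arrays at 20 h read 2993, 2958 and 3043 and 3126, 3526 and 3194, and at 44 h they read 37.6, 142 and 31.0. This was a fall of 42.8-fold, at -5.42 (SE 0.42, adjusted p = 5.32e-12). In the Nanog experiment uninjected embryos read 5164, 5891 and 5880.0 at 20 h and 321, 1097 and 892 at 44 h, a fall at -3.02 (SE 0.49, adjusted p = 1.90e-05). Control morpholino embryos read 4652, 4875 and 5625 and 494, 203 and 1026, a fall at -3.37 (SE 0.49, adjusted p = 4.83e-06). The replicates were close at 20 h and spread widely at 44 h. All 4 Spry4 probe sets passed in each of the 3 comparisons, with falls between -5.42 and -2.61.

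Spry4 rose with the Oct4 morpholino at 44 h. It read 171, 105 and 89.8 with the control and 820.0, 598 and 309.9 with the Oct4 morpholino. Every morpholino array exceeded every control array, and Spry4 rose 4.12-fold, at 2.04 (SE 0.49, adjusted p = 0.00503). This call held in all 14 alternative settings that kept this probe set or averaged all of them, with adjusted p up to 0.0475, and without any 1 of the 6 arrays. The other 3 probe sets were higher by 1.02, 0.80 and 0.67 and did not pass on their own. The level stayed far below that of uninjected embryos at 20 h.

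With the Sall4 morpholino Spry4 read 144, 149 and 148, within the control range, at 0.29 (SE 0.49, adjusted p = 0.884). With the Nanog morpholino it read 826, 2104 and 381 against 494, 203 and 1026, and the arrays overlapped at 0.87 (SE 0.49, adjusted p = 0.384). One probe set, 1422021_at, had all Nanog morpholino arrays above the controls, at 1.10 (SE 0.45, adjusted p = 0.163). At 20 h the Spry4 differences lay between -0.16 with the Sall4 and 0.28 with the Oct4 morpholino, and the Oct4 morpholino arrays, 3286, 3624 and 4035, were all above the uninjected ones without passing (adjusted p = 1.00).

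Transcripts of the oocyte followed a similar course over time. The summed level of 7 oocyte markers, such as the growth factor genes Gdf9 and Bmp15, was 12828 to 15023 at 20 h outside the Nanog experiment. At 44 h it was 1725 to 1948 with the control, 2171 to 2782 with the Oct4 and 3062 to 3790 with the Sall4 morpholino. In the Nanog experiment it was 26461 to 32599 at 20 h, and at 44 h 8097 to 12207 with the control and 16483 to 21200.1 with the Nanog morpholino. The oocyte sum lay higher with the Sall4 than with the Oct4 morpholino, largely through Oosp1, at a mean of 1080 against 244.1. Mean Bmp15 and Zar1 went the other way, at 767.5 against 829.3 and 50.13 against 62.48. Spry4 probe set 1440867_at was higher with the Oct4 than with the Sall4 morpholino, by 1.76. Its probe sets 1422020_at, 1422021_at and 1445669_at differed by 0.12, -0.12 and -0.10 and did not pass. The part of retained oocyte transcripts in the Spry4 values was not tested.

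Spry2, the other Sprouty gene, had small differences that passed in 1 comparison. In the Nanog experiment it lay between 3820.4 and 6540.1 on all 18 arrays. Outside it uninjected embryos read 535, 566 and 446 and 275, 638 and 623 at 20 h and 689.9, 869 and 1184 at 44 h, a rise at 0.83 (SE 0.28, adjusted p = 0.0140), which was lost without uninjected array 3 at 44 h (0.63, adjusted p = 0.117) and with the compared groups fitted alone (0.0541). Its second probe set rose in the same comparison, by 1.41. The knockdown differences ran from -0.20 with the Sall4 morpholino at 44 h to 0.33 with the Sall4 morpholino at 20 h. The intervals were -0.73 to 0.56 for the Oct4, -0.84 to 0.45 for the Sall4 and -0.40 to 0.90 for the Nanog morpholino at 44 h, which exclude differences beyond 2-fold but not smaller ones.

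Dusp6, the ERK phosphatase, had the widest spread between replicates of any member. In the Nanog experiment uninjected embryos read 130.4, 354 and 799 at 20 h and 906, 1865 and 1685 at 44 h. The groups did not overlap, and the rise was 2.02 (SE 0.74, adjusted p = 0.0429). It was lost without uninjected array 1 (1.38, adjusted p = 0.257) or 2 (2.05, 0.0756) at 20 h and without array 2 (1.82, 0.132) or 3 (1.90, 0.111) at 44 h. A pseudocount of 1 (2.09, adjusted p = 0.0630) and a fit of the compared groups alone (0.0894) also ended the call. Control morpholino embryos read 519.7, 154 and 1943 at 20 h and 1275, 184 and 1171 at 44 h, which overlapped at 0.26 (SE 0.74, adjusted p = 0.864). Dusp6 has a single probe set, so no second measurement bears on this.

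At 44 h outside the Nanog experiment Dusp6 read 189, 179.9 and 135 in uninjected embryos, 68.1, 35.1 and 70.7 with the control, 34.9, 48.0 and 36.5 with the Oct4 and 69.6, 15.6 and 63.1 with the Sall4 morpholino. All control arrays lay below all uninjected arrays, at -1.34 (SE 0.74, adjusted p = 0.978), and the knockdowns differed from the control by -0.37 and -0.27. Arrays of injected embryos of all 3 kinds thus lay below those of uninjected embryos, though the test of the control did not pass. At 20 h Dusp6 read 2081, 920.5 and 1513 with the Nanog morpholino against 519.7, 154 and 1943 with the control, at 1.36 (SE 0.74, adjusted p = 0.735), and the Oct4 and Sall4 differences were 0.74 and -0.14. With the Nanog morpholino at 44 h it read 1906, 249 and 531, a difference of -0.05.

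**Figure D4:**
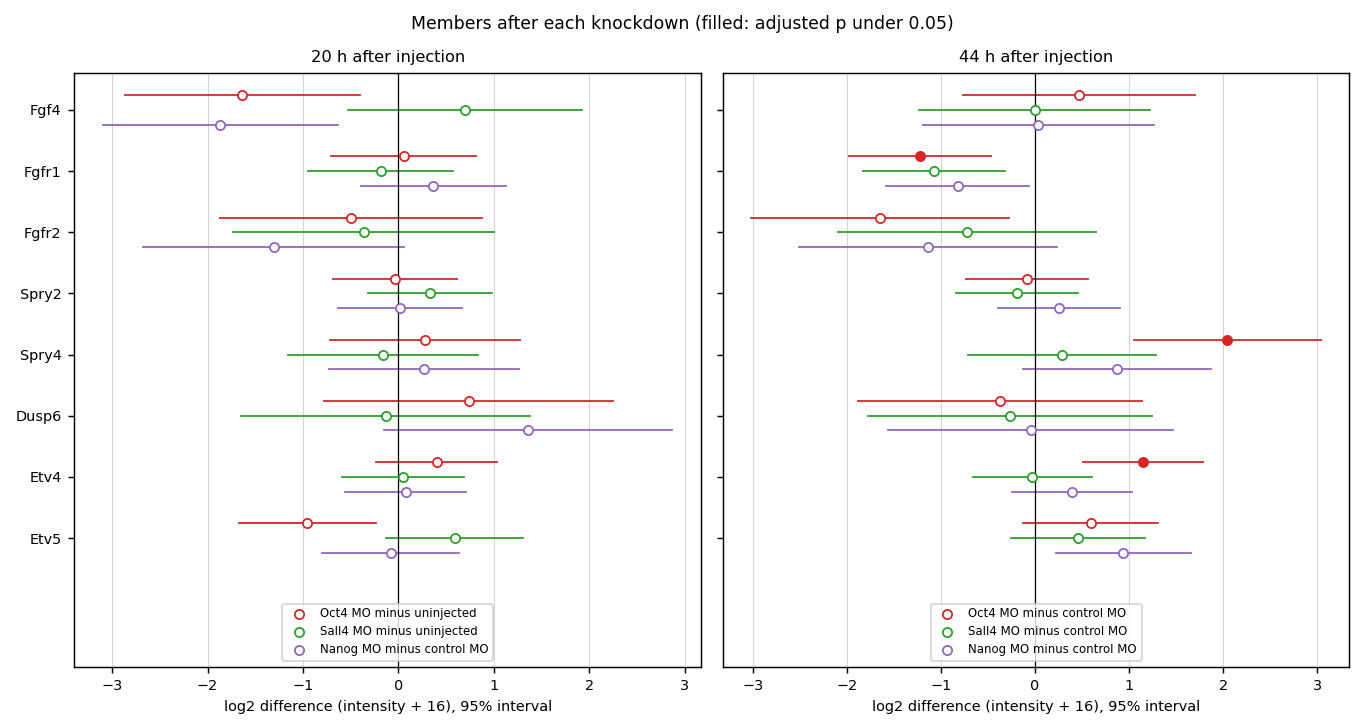
Difference of each member after each knockdown on the log2 scale, with its 95% interval, at 20 h (left) and 44 h (right); MO is morpholino, and the comparison group is named in the legend. Filled points passed an adjusted p of 0.05: Fgfr1, Spry4 and Etv4 with the Oct4 morpholino at 44 h.

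Etv4, an ETS factor downstream of FGF signalling, rose with the Oct4 morpholino at 44 h. It read 40.2, 63.6 and 86.5 with the control and 111, 196 and 169 with the Oct4 morpholino. All morpholino arrays exceeded all control arrays, and the rise was 2.22-fold, at 1.15 (SE 0.31, adjusted p = 0.0132). Uninjected embryos read 88.0, 71.8 and 97.1, and against them the difference was 0.76 at an adjusted p of 0.103. The call was lost without control array 1 (0.92, 0.0941) or Oct4 morpholino array 2 (0.99, 0.0673), with the compared groups fitted alone (0.0993) and with both probe sets averaged (0.51, adjusted p = 0.286). The other Etv4 probe set was too dim to be tested and read 12.3 to 34.3 in the injected embryos of that experiment.

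With the Sall4 morpholino Etv4 read 53.5, 29.9 and 119 at 44 h, which spanned the control range at -0.03 (SE 0.31, adjusted p = 0.990). With the Nanog morpholino it read 539, 292 and 398 against 422, 308 and 205, with overlap, at 0.39 (SE 0.31, adjusted p = 0.609). At 20 h the differences were 0.40, 0.05 and 0.07. Outside the Nanog experiment uninjected embryos read 58.2, 46.7 and 41.2 and 43.3, 49.0 and 37.3 at 20 h and 88.0, 71.8 and 97.1 at 44 h, a rise at 0.71 (SE 0.27, adjusted p = 0.0301). This call was lost without array 3 of the Oct4 (0.67, adjusted p = 0.0559) or the Sall4 experiment (0.68, 0.0522) at 20 h, and without array 1 (0.69, 0.0821) or 3 (0.63, 0.113) at 44 h. A pseudocount of 64 (0.44, adjusted p = 0.0740) and the mean of both probe sets (0.37, 0.232) did not pass either. Within the Nanog experiment the time differences were 0.20 in uninjected and 0.29 in control morpholino embryos. Etv4 lay near the array median there, at 0.98 to 1.68 times it at 20 h and 0.99 to 2.66 times it at 44 h.

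Etv5, the second ETS factor, fell over time in the Nanog experiment. Control morpholino embryos read 6036, 5969 and 6834 at 20 h and 2608, 2528 and 1813 at 44 h. The groups were far apart, with a fall at -1.45 (SE 0.35, adjusted p = 0.00247), and both other probe sets fell as well, by -1.82 and -1.79. Uninjected embryos read 4142, 4395 and 5673 and 2284, 3036 and 2291, without overlap, at -0.90 (SE 0.35, adjusted p = 0.0599), just short of the threshold, and the mean of all 3 probe sets passed at -1.15 (adjusted p = 0.0124). Outside the Nanog experiment the probe set with the highest mean differed by -0.23 (SE 0.30, adjusted p = 0.590), whereas the other 2 fell by -1.86 and -1.58.

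Etv5 was lower with the Oct4 morpholino at 20 h and higher with the Nanog morpholino at 44 h, and neither difference passed. At 20 h it read 817, 359.9 and 582 with the Oct4 morpholino against 1172, 903 and 1232 uninjected, without overlap, at -0.95 (SE 0.35, adjusted p = 0.210). With array weights this value passed, at -1.09 and 0.0192, but the other probe sets differed by only -0.09 and -0.21. At 44 h it read 5683, 4052 and 3699.7 with the Nanog morpholino, all above the control at 2608, 2528 and 1813, at 0.94 (SE 0.35, adjusted p = 0.131). The effect of the Nanog morpholino differed between the times by 1.02 (unadjusted p = 0.0486, adjusted p = 0.454). With the Oct4 and Sall4 morpholinos at 44 h Etv5 read 872, 964 and 682 and 1367, 954 and 327 against 330.3, 566 and 868, with overlap. With the Sall4 and Nanog morpholinos at 20 h the differences were 0.59 and -0.08.

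Between the knockdowns, 2 of 8 members differed at 44 h when Oct4 was set against Sall4 morpholino embryos, where 7.07% of all genes did. Spry4 was higher with the Oct4 morpholino by 1.76 (SE 0.49, adjusted p = 0.0224), and Etv4 by 1.18 (SE 0.31, adjusted p = 0.0162), the latter with overlapping arrays. Spry4 passed in 1 of the 6 fits without 1 array, that without Oct4 morpholino array 3, with adjusted p of 0.0525 to 0.115 in the others. Etv4 passed in 2, those without Oct4 morpholino array 1 or Sall4 morpholino array 3, with 0.0548 to 0.149 in the others, and the Spry4 probe sets 1422021_at and 1445669_at differed by -0.12 and -0.10. The difference of the Oct4 and Nanog morpholino effects passed for 0 members (2.13% of all genes), with Spry4 at 1.17 (SE 0.69, adjusted p = 0.462) and Etv4 at 0.76 (SE 0.44, adjusted p = 0.454). The Sall4 and Nanog effects differed for 0 members (0.743%), and the Nanog effects at 44 h and 20 h for 0 (0.827%). Unadjusted p in limma was under 0.05 for 2281, 1848 and 1685 of all 15478 genes in these tests, and for 0, 0 and 3 members. The last were Fgf4, Fgfr1 and Etv5, with Fgfr1 at -1.19 (SE 0.53, adjusted p = 0.383). So the calls with the Oct4 morpholino at 44 h were not shown to differ from the effects of the Nanog morpholino.

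Control injection gave no call, though some of its differences were as large as those of a knockdown. Differences between control morpholino and uninjected embryos ran from -1.34 for Dusp6 at 44 h outside the Nanog experiment to 1.14 for Fgfr2 at 20 h in the Nanog experiment. In 5 gene and time pairs the arrays did not overlap: Fgfr1 lower and Etv5 higher at 20 h, Dusp6 lower at 44 h outside the Nanog experiment, and Spry2 lower at 44 h in both. The exact permutation p of such a separation is 0.1 for a single gene. The share of all genes that separated in these comparisons was not counted, so these 5 pairs alone do not show an effect of injection. With control morpholino embryos, Fgfr1 at 20 h differed by -0.75 (SE 0.37, adjusted p = 0.867), Spry2 by -0.50 and -0.25, and Etv5 at 20 h by 0.42 (SE 0.35, adjusted p = 1.00). The knockdowns at 20 h in the Oct4 and Sall4 experiments have uninjected embryos alone as their comparison, so injection and knockdown cannot be told apart there.

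Other genes of the pathway were counted in lists by role that leave out the 8 members: 35 ligands, receptors and co-receptors, 20 genes of the kinase cascade, 24 inhibitors and 24 other targets were tested. At 44 h, 3 of 24 other targets rose and 0 fell with the Oct4 morpholino, a share near the 11.6% of all genes called there, at a median log2 difference of 0.60 against 0.02 over all genes. The 3 were the immediate-early genes Egr1 (725 ± 154 against 49.8 ± 60.4, SD, n = 3, log2 difference 3.89), Ier3 (3.40) and Fosl2 (2.70). Among the inhibitors 5 rose and 2 fell, with the phosphatase gene Dusp1 (2.09) and the receptor inhibitor Lrig1 (1.92) higher, and Sulf2 (-1.82), which edits heparan sulfate, and the receptor antagonist Il17rd (-1.47) lower. Among ligands and receptors Fgf1 (1.83) and the co-receptor Sdc1 (1.39) rose, while the receptors Fgfr3 (-1.69) and Fgfr4 (-0.96) fell. In the cascade 3 genes rose and 2 fell, the latter the docking protein gene Gab1 (-2.28) and the kinase gene Map2k2 (-1.55).

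With the Nanog morpholino at 44 h, 4 of 24 inhibitors rose and 0 fell, where 5.01% of all genes were called, at a median of 0.05, the same as over all genes. The 4 were the dual-specificity phosphatase genes Dusp4 (2.14), Dusp7 (1.41), Dusp1 (1.40) and Dusp5 (1.33). Of these, Dusp4 was 360 ± 417 against a dim 40.8 ± 17.5 (SD, n = 3), so its SD exceeded its mean. Other tested genes of that family on the list did not pass, with Dusp9 at 1.96 (adjusted p = 0.0565), Dusp2 at 0.06, Dusp10 at -0.13 and Dusp14 at -0.50. Dusp6, of the same family, differed by -0.05 with an interval of -1.56 to 1.47. Among other targets Fos (3.35), Fosl2 (2.62) and Egr1 (1.65) rose and Myc (-1.55) fell. Fgf9, a ligand, rose by 1.65, whereas Fgf4 differed by 0.03. Replicates spread widely for Fos, at 355 ± 302 against a dim 13.7 ± 3.91, for Fosl2, at 1081 ± 714 against 209 ± 259, and for Fgf9, at 1294 ± 1067 against 341 ± 137 (SD, n = 3). With the Sall4 morpholino, where 3.97% of all genes were called, 0 of 24 targets rose and 2 fell, Srf (-1.65) and Ets1 (-1.14). Among the ligands and co-receptors Sdc1 (1.57) and Fgf8 (2.25) rose. Fgf8 was 133 ± 166 against a dim 3.33 ± 3.53 (SD, n = 3), so its SD exceeded its mean. The effect on Dusp1 differed between the Sall4 and Nanog morpholinos by -2.13 (limma, adjusted p = 0.00580).

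At 20 h few genes of the lists passed. With the Oct4 morpholino, where 2.02% of all genes were called, 1 of 35 ligands and receptors and 1 of 20 cascade genes passed. The ligand was Fgf10, which rose by 1.16 from a dim 9.79 ± 4.06 to 41.9 ± 10.9 (SD, n = 3). The cascade gene was Sos1, an exchange factor for Ras, which fell by 1.35. With the Sall4 (0.233% of all genes) and Nanog morpholinos (0.62%) 0 genes of the 4 lists passed. Many inhibitors fell in the comparisons of times in which Spry4 fell. In uninjected embryos of the Nanog experiment 10 of 24 inhibitors fell and 0 rose, where 25.6% of all genes were called, at a median of -0.83 against 0.02 over all genes. The largest falls were Dusp7 (-4.43), Lrig1 (-2.69), Errfi1 (-2.39) and Rasa2 (-2.28), and among targets Egr1 fell by 3.08 while Myc rose by 2.81. In control morpholino embryos 10 inhibitors fell and 0 rose (23.3% of all genes called), at a median of -0.86 against -0.09. In the other experiments 14 fell and 2 rose (45.5%), at a median of -1.43 against -0.06. Spry2 and Dusp6 were not called lower in any of these 3 comparisons, though Dusp6 in the last differed by -0.33 with an interval of -1.64 to 0.98. The falling inhibitors stand beside the oocyte markers given above, whose part was not tested.

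The genes with the pattern most like each member were found by Pearson correlation over the 14 group means, after the mean of each set of experiments was taken off. Spry4 was nearest to Zranb1 (r = 0.985) and Cftr (0.984), and Fgfr2 to Snrpb (0.984) and Prdx3 (0.983), both patterns set by the difference between the times. Etv4 was nearest to Rabepk (0.940) and Fgfr1 to Dolpp1 (0.936), and Spry2 to Blvrb (0.911). Fgf4 was nearest to Brip1os (0.898), Etv5 to Slc25a25 (0.898) and Dusp6 to Zfp60 (0.888). These values rank all tested genes over groups that share arrays and scale, and describe the pattern alone.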

How the data were processed

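Each array held amplified RNA of B6D2F1 embryos, extracted with PicoPure and amplified with the NuGEN WT-Ovation One-Direct system, per the labels' protocols. The deposited values are linear intensity per probe set; how the authors normalized them was not given in the sources used here. Nanog experiment arrays lie on another scale than the rest, and array number, not counting depth, limits precision. Values were taken as log2(intensity + 16). Of 45101 probe sets, 34945 have 1 gene symbol. The probe set with the highest mean stood for a gene, and 15478 of 18193 genes with a group mean above an intensity of 71.15 were tested. One limma 3.58.1 model (R 4.3.3) held all 42 arrays and 14 group means, with two-sided tests, Benjamini-Hochberg adjustment over all genes tested and a threshold of 0.05. The code was tested on simulated data. p-values measure the spread between arrays labelled as biological replicates.

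The members and lists were chosen with earlier results of these data known. Named genes were all members and the 2 genes most like each member, of which the nearest are given. From the lists, up to 4 called genes with the largest change per list and comparison were eligible, and not all are given. Markers and the other tested Dusp genes on the inhibitor list are named as well. Replicate numbers paired arrays in 1 comparison, control morpholino against uninjected embryos at 20 h in the Nanog experiment, where all 3 same-number correlations of deviations exceeded 0.1 (0.111 to 0.120). Alternatives covered pseudocount, filter, probe sets, normalization, arrays in the fit, array weights, a replicate block and left-out arrays. Promoter windows came from RefSeq on GRCm38.p6.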

Additional observations from a re-analysis of the deposited data

How the results depend on the processing

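Counts of members past the test were the same under every alternative in 9 of the 16 comparisons, each with a count of 0, and changed in 7. With the Oct4 against the Sall4 morpholino at 44 h the count of 2 became 1 with a filter at the 75th percentile, 0 with all probe sets averaged, 0 with the compared groups fitted alone, 1 with array weights, and 0 to 1 without any 1 array. With the Oct4 morpholino at 44 h the count of 3 became 1 with the compared groups alone, and 1 to 3 without 1 array, lowest without control array 1; it was 2 with that filter, with uninjected embryos as the control, and with probe sets averaged, which lost Fgfr1 and Etv4 and gained Fgfr2. With the Oct4 morpholino at 20 h array weights gave 2, Fgf4 and Etv5, in place of 0. Averaging all probe sets gave 2 with the Nanog morpholino at 44 h, Fgfr1 and Fgfr2, in place of 0. Between the times in uninjected embryos of the Nanog experiment the count of 3 became 5 with probe sets averaged, 2 with a pseudocount of 1 and in 4 of 6 fits without 1 array, all without Dusp6, and 4 with a pseudocount of 64, that filter or array weights, which added Etv5, or quantile normalization, which added Fgfr1; the compared groups alone exchanged Dusp6 for Etv5. In control morpholino embryos the count of 4 became 3, without Fgfr1, with the compared groups alone and in 2 of 6 fits without 1 array. Uninjected embryos of the other experiments had a count of 5, which became 4 under 4 settings and was 3 to 5 without 1 array, lowest without uninjected array 3 at 44 h. The cause of these changes was not tested.

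Of 2824 single values under the alternatives, 193 had the other sign, 65 of them with another probe set, and 5 of these concerned a call. Fgfr1 with the Oct4 morpholino at 44 h read 0.36 with 1424050_s_at, and over time in the other experiments it read -0.16 with 1424050_s_at and -0.029 with 1436551_at. Spry4 in the Oct4 against the Sall4 morpholino read -0.12 with 1422021_at and -0.10 with 1445669_at. Among values without a call, Spry2 with the Sall4 morpholino at 20 h read 0.33 but -0.39 with 1421656_at, and Spry4 in control against uninjected embryos at 44 h of the Nanog experiment read -0.52 but 1.60 with 1422020_at. A replicate block changed no count of members, with 3 with the Oct4 morpholino at 44 h, 2 between the Oct4 and Sall4 morpholinos, and 3, 4 and 5 between the times.

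The calls of all genes moved more. Genes called, with the range over other settings in parentheses, numbered 312 (13 to 942) for Oct4, 36 (0 to 79) for Sall4 and 96 (0 to 164) for Nanog morpholinos at 20 h. At 44 h they numbered 1789 (705 to 2230), 614 (0 to 1076) and 775 (11 to 1296), and 1095 (22 to 1247) between Oct4 and Sall4. Control against uninjected embryos gave 14 (0 to 50) at 20 h, and at 44 h 15 (0 to 27) with the Oct4 and Sall4 experiment and 54 (0 to 305) with the Nanog experiment. The difference from the Nanog effect at 44 h gave 329 (90 to 387) for Oct4 and 115 (5 to 193) for Sall4, and that of the Nanog effects at 44 h and 20 h gave 128 (7 to 300). Each lowest count came from limma on the compared groups alone, which has fewer arrays to estimate the spread; a pseudocount of 1 also gave 0 for the control at 20 h, with 550 genes at an unadjusted p under 0.05. In the fits of compared groups by themselves, counts of 0 stood beside 954 such genes for Sall4 and 1186 for Nanog at 20 h, 2316 for Sall4 at 44 h, and 706, 960 and 1815 for the control comparisons in the order above. Without 1 array the counts at 20 h were 97 to 528 for Oct4, 30 to 184 for Sall4, highest without uninjected array 1, 42 to 98 for Nanog and 7 to 53 for the control, highest without uninjected array 2. At 44 h they were 1161 to 1583, 247 to 801 and 400 to 955, and 848 to 981 between Oct4 and Sall4; 4 to 15 and 15 to 114 for the controls; and 238 to 365, 75 to 200 and 71 to 192 for the differences of effects. With 3 arrays a group, SE of the members ran from 0.31 for Etv4 to 0.74 for Dusp6, so a change of Dusp6 needs to be large to be seen.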
